A study of Mus musculus with 12 samples.

Results

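NF-kB is a family of transcription factors built as pairs of Rel-domain subunits, and the genes described here are its subunits, its feedback regulators, the target gene Tnfaip2 and the receptor gene Tlr2. The 10 genes Rela, Relb, Nfkb1, Nfkb2, Nfkbia, Nfkbiz, Tnfaip2, Tnfaip3, Birc3 and Tlr2 were chosen by name, and each was represented by its probe set on the array. A named probe set was found for 9 of the 10, out of 22180 genes in all, each with 1 probe set. For Nfkb1 no probe set carried the symbol, and it is not analysed here. Expression was measured on 12 Affymetrix arrays of cultured mouse keratinocytes, the main cells of the epidermis, all of which carried Atg7 alleles flanked by recombination sites. Cells without the K14::Cre recombinase are called wt (autophagy competent), and cells with it, in which a keratin promoter of basal keratinocytes drives deletion of Atg7, are called KO (autophagy deficient). In KGM-2 medium, at 50% confluence, one set of cultures received 20 µM paraquat, an herbicide whose redox cycling makes superoxide, the other a sham treatment, and RNA was taken 48 h later. The 4 groups (wt sham, wt paraquat, KO sham, KO paraquat) held 3 arrays each. The labels call the arrays biological triplicates but name no animals, so the p-values measure only the spread between these samples.

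In resting cells most NF-kB is held in the cytoplasm by inhibitors such as the product of Nfkbia. Signals from receptors for microbial products and cytokines lead to breakdown of the inhibitor, after which RELA-containing dimers enter the nucleus. A second, non-canonical branch works through processing of the NFKB2 precursor and its partner RELB. Several targets of the pathway feed back on it, among them Nfkbia and Tnfaip3. In epidermis the pathway is known for inflammatory gene expression and for its role in psoriasis-like disease, where Nfkbiz encodes a nuclear cofactor.

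Feedback genes of this family are known for kappaB sequences close to their start sites, so promoter windows are shown first, for the pair of genes with the largest changes (Tnfaip2 and Tlr2) and for 3 genes that regulate the pathway. The windows come from RefSeq (GRCm38.p6), run from 250 bases before to 50 bases after a transcription start, and are written 5′ to 3′ on the gene's strand. Windows were at hand for 7 of the 10 genes. Capitals mark matches to the kappaB consensus on either strand, with overlapping matches joined into one stretch. The windows are chr19:46304487-46304786 (plus strand) for Nfkb2, chr12:55492598-55492897 (minus) for Nfkbia, chr10:19015361-19015660 (minus) for Tnfaip3, chr3:83841559-83841858 (minus) for Tlr2 and chr12:111442411-111442710 (plus) for Tnfaip2.
Nfkb2: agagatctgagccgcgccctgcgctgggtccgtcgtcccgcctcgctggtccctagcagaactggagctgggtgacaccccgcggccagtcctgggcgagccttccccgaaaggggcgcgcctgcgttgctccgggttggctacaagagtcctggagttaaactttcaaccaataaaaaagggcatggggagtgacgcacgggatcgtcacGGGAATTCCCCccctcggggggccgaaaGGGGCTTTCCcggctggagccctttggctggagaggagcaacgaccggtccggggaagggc
Nfkbia: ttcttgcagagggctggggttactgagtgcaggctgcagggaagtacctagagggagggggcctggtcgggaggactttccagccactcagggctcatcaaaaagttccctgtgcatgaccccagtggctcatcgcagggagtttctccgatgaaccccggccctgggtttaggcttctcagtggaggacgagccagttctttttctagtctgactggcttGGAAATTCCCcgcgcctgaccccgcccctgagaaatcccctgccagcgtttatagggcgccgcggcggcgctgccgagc
Tnfaip3: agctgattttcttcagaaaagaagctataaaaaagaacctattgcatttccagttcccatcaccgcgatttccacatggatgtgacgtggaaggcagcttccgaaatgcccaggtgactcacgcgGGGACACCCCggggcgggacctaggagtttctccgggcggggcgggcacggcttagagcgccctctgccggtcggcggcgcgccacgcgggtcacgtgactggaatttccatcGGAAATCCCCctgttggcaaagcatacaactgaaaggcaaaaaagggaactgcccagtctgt
Tlr2: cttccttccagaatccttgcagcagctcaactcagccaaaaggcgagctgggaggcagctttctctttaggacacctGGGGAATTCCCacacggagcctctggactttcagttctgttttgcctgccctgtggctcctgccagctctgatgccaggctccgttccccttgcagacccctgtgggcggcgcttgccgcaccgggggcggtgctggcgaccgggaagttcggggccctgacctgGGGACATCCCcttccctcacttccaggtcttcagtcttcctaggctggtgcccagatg
Tnfaip2: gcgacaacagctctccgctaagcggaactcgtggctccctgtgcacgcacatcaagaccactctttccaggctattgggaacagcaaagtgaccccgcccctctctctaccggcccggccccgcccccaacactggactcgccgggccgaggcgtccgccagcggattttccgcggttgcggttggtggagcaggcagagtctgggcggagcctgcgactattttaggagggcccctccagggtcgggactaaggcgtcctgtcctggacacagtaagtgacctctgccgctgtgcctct

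A match to the kappaB consensus stood in at least 1 window of 4 of the 7 genes, namely Nfkb2, Nfkbia, Tnfaip3 and Tlr2. Over all genes with such windows, 5.14% of 27025 had one, as did 4.51% of 32851 windows. The match in Nfkbia read GGGAATTTCC on the opposite strand and began 29 bases before the start. The Nfkb2 window held 2 separate stretches in capitals, beginning 39 and 11 bases before the start. The other 2 windows of this gene overlap each other and share a single GGGACTTTCC, the same genomic site in both. One of them also held GGGACATTCC on the opposite strand, 236 bases before its start. In the Tnfaip3 window shown, the matches began 125 and 12 bases before the start, the nearer one reading GGGGATTTCC on the opposite strand. Another window of Tnfaip3, chr10:19011914-19012213 (minus), held none. In Tlr2 the stretch 173 bases before the start held 3 overlapping matches, since GGGAATTCCC reads alike on both strands, and another match lay across the start. The windows of Rela, Birc3 and Tnfaip2 held none. A match describes letters and is not a measured binding site.

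The arrays were checked against their labels. Atg7, needed to form autophagosomes, had signals of 96 to 148 in the 6 KO arrays and 286 to 457 in the 6 wt arrays, with a log2 difference over both treatments of -1.71 ± 0.10 (SE, adjusted p = 3.45e-06 in limma). The 7 measured keratinocyte markers, Krt14, Trp63 and Dsg3 among them, lay above the array median in all arrays, and they summed to 18656 to 19148 in wt sham and 17208 to 17415 in wt paraquat, and to 18372 to 19027 and 16624 to 18134 in the KO groups. Most of that sum was Krt14 and Dsg3, and the markers of differentiation moved apart under paraquat. Ivl, a protein of the cornified envelope, rose by log2 2.73 in wt and 2.33 in KO, while the keratin gene Krt1 was 2.63-fold and 3.08-fold lower, with 1 of the 7 markers higher in each genotype and 4 lower in wt and 3 in KO. The part of differentiation in the results below was not tested. The median signal of an array was 42 to 45, and background was not measured. In a principal component analysis over all genes, wt sham 2 stood at -31.4 on the second component where the rest of its group stood at -11.4 and -20.4, and KO paraquat 3 stood at -19.7 on the third where its group had -5.52 and -6.34. Results that change without either array are given both ways.

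In wt keratinocytes 6 of the 9 genes changed under paraquat, in both directions. Tnfaip2 rose 4.52-fold, Rela 1.41-fold and Nfkbiz 1.23-fold, while Tlr2 fell to a level 2.72-fold lower, Relb 1.37-fold lower and Nfkb2 1.33-fold lower. Nfkbia, Tnfaip3 and Birc3 did not pass the threshold, which was an adjusted p of 0.05 in limma over all 22180 genes. That is 3 higher and 3 lower, beside 29.2% of all genes called (14.9% higher and 14.3% lower). All 9 genes pass a filter on dim genes (a signal over that of the median probe set in 3 or more arrays). Among the 12961 genes passing it, 50.7% were called in wt. The median log2 change was 0.13 over the 9 genes and 0.0088 over all genes.

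In KO keratinocytes paraquat gave 4 calls. Tnfaip2 rose 6.34-fold, Rela 1.55-fold and Nfkbiz by 0.26 on the log2 scale, and Tlr2 was 3.41-fold lower. Beside these 4 of 9, 27.1% of all genes were called (14.5% higher and 12.6% lower), and 47.6% of those passing the filter. The median log2 change was -0.09 over the 9 genes and 0.0079 over all genes. Relb and Nfkb2, which fell in wt, had log2 changes of -0.09 and -0.06.

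**Figure D1:**
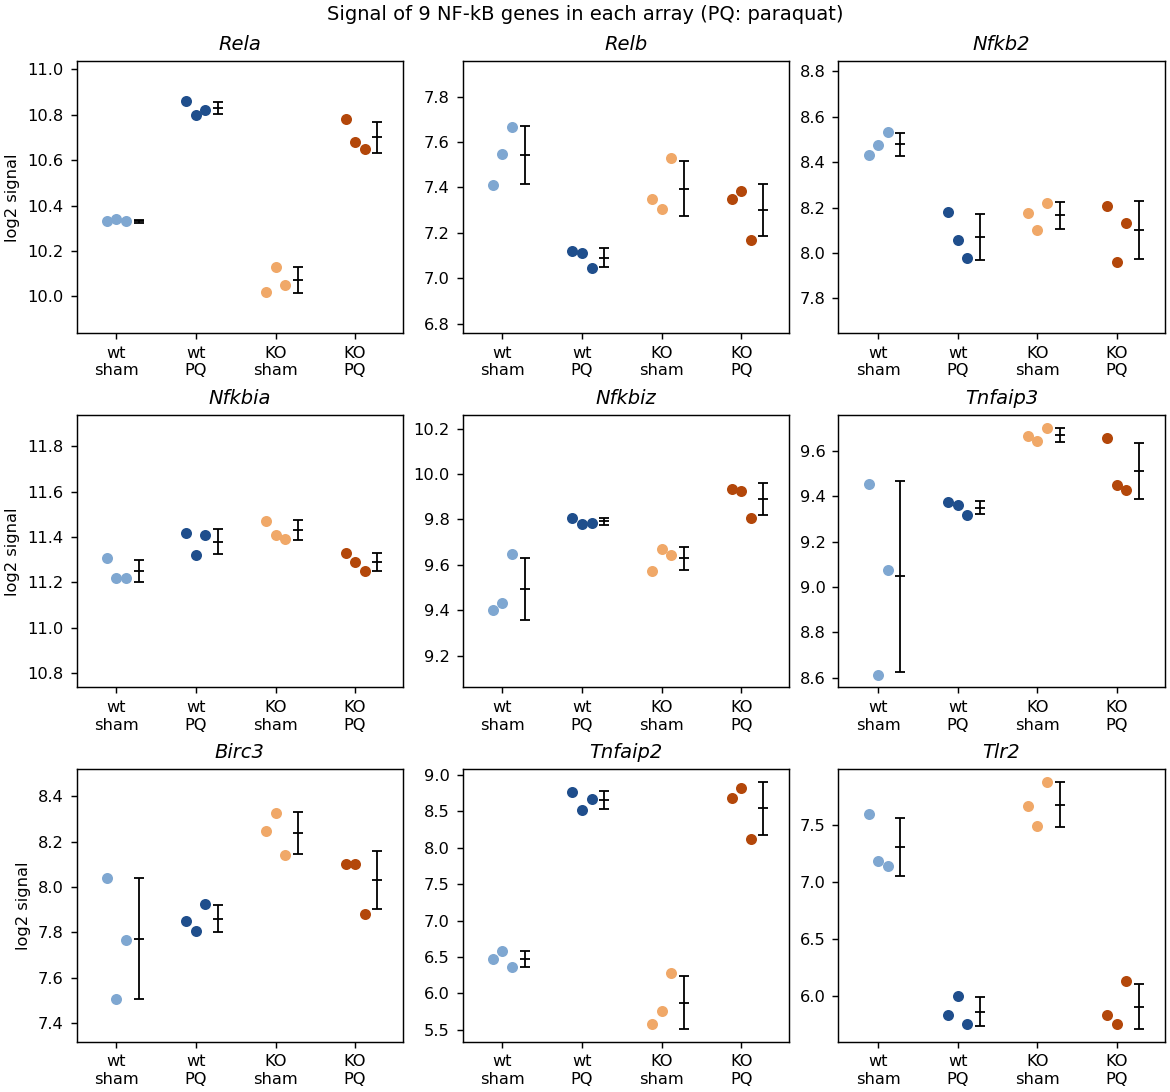
Log2 signal (vertical axis, a separate range in each panel) of the 9 genes in each of the 12 arrays, by group; PQ is paraquat, and the bar beside each group is the mean with its SD over 3 arrays. Tnfaip2 and Tlr2 part sham from paraquat in both genotypes, and Tnfaip3 and Birc3 spread widely in wt sham. The 4 groups of Rela do not overlap, but its paraquat groups lie close and their difference did not pass the threshold.

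Rela encodes the main activating subunit of the canonical branch. Its signal was 1285, 1298 and 1291 in wt sham and 1855, 1787 and 1804 in wt paraquat. In KO it was 1041, 1122 and 1057 in sham and 1757, 1635 and 1612 under paraquat. The 4 groups did not overlap anywhere, with the order wt paraquat, KO paraquat, wt sham, KO sham. Paraquat raised it by log2 0.49 ± 0.07 in wt (SE with n = 3 in each group, adjusted p = 1.31e-04) and by 0.64 ± 0.07 in KO (adjusted p = 2.00e-05). Of the 9 genes it had the smallest spread within wt sham, an SD of 6.51 on a mean of 1291.

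Relb encodes the partner subunit of the non-canonical branch. Signals were 170, 187 and 203 in wt sham and 139, 138 and 132 in wt paraquat, so that all treated arrays lay below all sham arrays. In KO they were 163, 158 and 185 in sham and 163, 167 and 144 under paraquat, and these overlapped. The fall in wt was log2 -0.45 ± 0.09 (adjusted p = 0.00234), and the change in KO was -0.09 (95% interval -0.30 to 0.11, adjusted p = 0.539). The difference between the 2 responses was 0.36 (95% interval 0.07 to 0.64) and did not pass (adjusted p = 0.205), so the fall is not shown to differ between the genotypes.

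Nfkb2 encodes the precursor that RELB pairs with, and its values went with a high level in wt sham. Signals were 345, 356 and 370 in wt sham, above every other array. The other groups overlapped, at 290, 266 and 252 in wt paraquat, and in KO at 289, 275 and 298 in sham and 296, 249 and 281 under paraquat. The fall in wt under paraquat was log2 -0.41 ± 0.09 (adjusted p = 0.00264). In KO the change was -0.06 (95% interval -0.25 to 0.12, adjusted p = 0.663). The responses differed by 0.34 (95% interval 0.08 to 0.61, adjusted p = 0.186), which did not pass.

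Among the regulators, Nfkbia, the gene of the inhibitor IkB-alpha, stayed within a narrow range. Its signals were 2534, 2393 and 2388 in wt sham and 2741, 2555 and 2713 in wt paraquat, and 2844, 2729 and 2683 in KO sham against 2581, 2507 and 2440 in KO paraquat. Treated arrays lay above sham arrays in wt and below them in KO, without overlap. The log2 changes were 0.13 (95% interval -0.02 to 0.29, adjusted p = 0.216) and -0.13 (-0.29 to 0.02, adjusted p = 0.209). The difference between them, -0.26 ± 0.10, had an unadjusted p of 0.022 and an adjusted p of 0.219.

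Nfkbiz, which encodes a nuclear cofactor of NF-kB that drives a subset of its targets, was higher under paraquat in both genotypes. Signals were 676, 690 and 802 in wt sham and 896, 880 and 881 in wt paraquat. In KO they were 762, 814 and 799 in sham and 979, 972 and 896 under paraquat. Treated arrays lay above the sham arrays of their genotype throughout. The rise was log2 0.30 ± 0.08 in wt (adjusted p = 0.0146) and 0.26 ± 0.08 in KO (adjusted p = 0.032). Both calls were narrow: in wt the adjusted p was 0.0614 without wt sham 1, and in KO it was 0.0916, 0.0629, 0.101 and 0.097 without KO sham 1, KO sham 3, KO paraquat 1 or KO paraquat 2.

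Tnfaip3 encodes a ubiquitin-editing enzyme that dampens signalling to NF-kB. Its signals in wt sham were 701, 391 and 540, the widest spread of the set (an SD of 155 on a mean of 544). They were 663, 657 and 638 in wt paraquat, and in KO they were 813, 800 and 834 in sham and 807, 699 and 690 under paraquat. The wt sham arrays thus lay both above and below the wt paraquat arrays. The log2 change under paraquat was 0.30 in wt (95% interval -0.03 to 0.64, adjusted p = 0.184) and -0.16 in KO (-0.50 to 0.18, adjusted p = 0.525). Without wt sham 1 the change in wt was 0.51 (adjusted p = 0.00934), and without wt sham 2 it was 0.08 (adjusted p = 0.655).

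Birc3, a ubiquitin ligase of tumour necrosis factor receptor complexes, had its lowest signal in the same wt sham array as Tnfaip3, wt sham 2. Signals were 263, 182 and 218 in wt sham and 231, 224 and 243 in wt paraquat. They were 304, 321 and 282 in KO sham and 275, 275 and 236 in KO paraquat. All KO sham arrays lay above all arrays of the other 3 groups. The log2 change under paraquat was 0.09 in wt (95% interval -0.17 to 0.35, adjusted p = 0.657) and -0.21 in KO (-0.47 to 0.05, adjusted p = 0.243). Single arrays decided the value in wt, which was -0.04 without wt sham 2 and 0.22 without wt sham 1. In KO it was -0.13 without KO paraquat 3.

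The largest changes of the set were in Tnfaip2 and Tlr2, in opposite directions. Tnfaip2 encodes a protein induced by tumour necrosis factor that takes part in forming membrane protrusions. Its signals were 89, 96 and 82 in wt sham and 435, 367 and 406 in wt paraquat. In KO they were 48, 54 and 78 in sham and 409, 452 and 279 under paraquat. Every treated array lay above every sham array, and the 2 treated groups overlapped. The rise was log2 2.18 ± 0.19 in wt (adjusted p = 1.17e-06) and 2.67 ± 0.19 in KO (adjusted p = 4.00e-07). With 16 added to each signal before the log2, which damps changes of dim genes, the change stayed at 1.99 in wt and 2.37 in KO.

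Tlr2 encodes a receptor for bacterial lipopeptides at the cell surface. Its signals were 193, 145 and 141 in wt sham and 57, 64 and 54 in wt paraquat. In KO they were 203, 179 and 235 in sham and 57, 54 and 70 under paraquat. All 6 treated arrays lay below all 6 sham arrays, and not far above the array medians of 42 to 45. The fall was log2 -1.44 ± 0.14 in wt (adjusted p = 4.32e-06) and -1.77 ± 0.14 in KO (adjusted p = 1.32e-06). In the order of group means, KO sham and wt sham overlapped, as did KO paraquat and wt paraquat. The responses of Tnfaip2 and Tlr2 differed between genotypes by 0.49 (95% interval -0.08 to 1.06) and -0.33 (-0.76 to 0.11), neither past the threshold (adjusted p = 0.416 and 0.491).

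**Figure D2:**
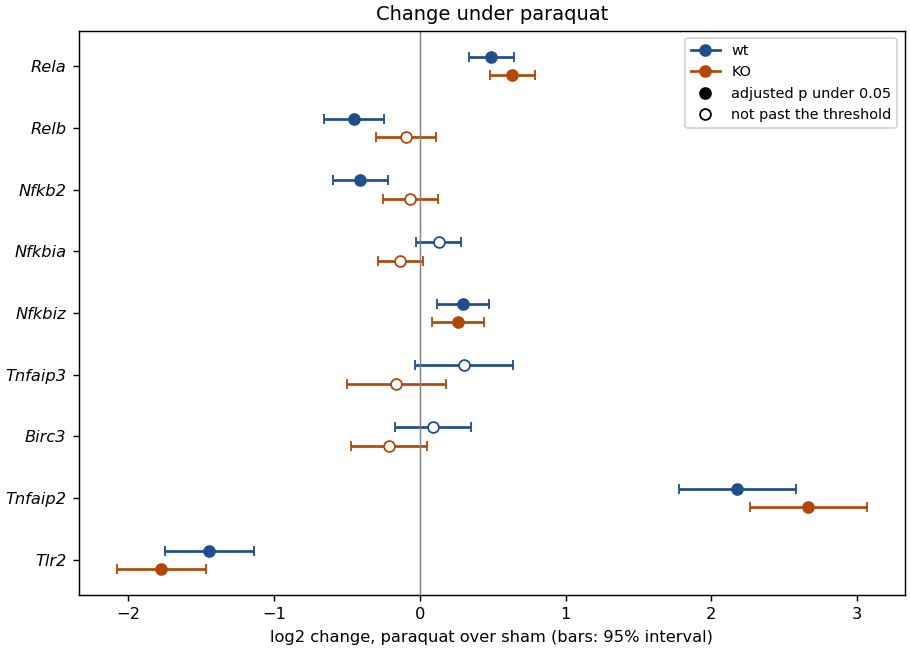
Log2 change under paraquat (horizontal axis, paraquat over sham) of each gene in wt and KO, with 95% intervals from limma; filled points passed an adjusted p of 0.05. Tnfaip2 lies at 2.18 and 2.67 and Tlr2 at -1.44 and -1.77, while Relb and Nfkb2 are filled in wt and open in KO.

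The test of the difference between the responses called 0 of the 9 genes in limma, beside 2.29% of all genes. At an unadjusted p under 0.05 there were 3 of 9, Relb, Nfkb2 and Nfkbia, and the share of 2.29% does not apply to this cutoff. By p they ranked 2106, 1835 and 2225 of 22180 genes. Tnfaip3, at an unadjusted p of 0.056 in limma, ranked 3616, so nothing particular to the 9 genes is read from this count. For Relb and Nfkb2 the difference was positive and for Nfkbia negative. The remaining differences ran from -0.46 for Tnfaip3 (95% interval -0.94 to 0.01) to 0.49 for Tnfaip2. Without wt sham 2 the difference was -0.24 for Tnfaip3 and -0.17 for Birc3, against -0.30 for Birc3 with all arrays, and 3 arrays a group limit what this test could detect.

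After sham treatment, KO and wt keratinocytes differed in 4 of the 9 genes, 2 lower and 2 higher, beside 10.2% of all genes (5.67% lower and 4.58% higher) and 21.5% of those passing the filter. Rela was lower in KO sham (log2 -0.27 ± 0.07, adjusted p = 0.0307) and Nfkb2 was 1.24-fold lower (log2 -0.31 ± 0.09, adjusted p = 0.0373). Tnfaip3 was 1.54-fold higher (0.62 ± 0.16, adjusted p = 0.0218) and Birc3 1.38-fold higher (0.47 ± 0.12, adjusted p = 0.0256). All 3 KO sham arrays lay outside the range of the wt sham arrays for each of the 4, and also for Nfkbia and Tnfaip2, which were not called. The share of all genes parted in this way was not counted, and the parting adds no support to the calls, which come from the same arrays. This comparison shares the wt sham arrays with the paraquat comparison in wt.

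These 4 calls rested on the full set of arrays. From the 6 sham arrays alone 0 of the 9 genes passed. Rela missed the threshold without any 1 of wt sham 1, 2 or 3 or KO sham 1 or 3 (adjusted p from 0.0555 to 0.0857), and Nfkb2 without wt sham 2 or 3 or any 1 of KO sham 1, 2 and 3 (0.0591 to 0.121). Their log2 differences then lay between -0.25 and -0.27 and between -0.28 and -0.34. Tnfaip3 missed it without wt sham 2 or 3 or any of the 3 KO sham arrays (0.0548 to 0.0657), with a difference of 0.41 without wt sham 2, against 0.61 to 0.64 without each of the other 4. Birc3 missed it without wt sham 2 or 3 or KO sham 1 or 2 (0.0675 to 0.0987), with a difference of 0.33 without wt sham 2. Without wt sham 2 and KO paraquat 3 together 0 of the 9 passed, and the directions held.

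The remaining 5 genes gave no call between the sham groups. Tnfaip2 was lower in all 3 KO sham arrays (log2 -0.60 ± 0.19, adjusted p = 0.0612), and passed without KO sham 3 (-0.80, adjusted p = 0.0151), with a robust variance trend (0.045) and with the filter on dim genes (0.0324). Tlr2 had a difference of 0.37 (95% interval 0.06 to 0.68, adjusted p = 0.132) and passed without wt sham 1 (0.52, adjusted p = 0.0325). Nfkbia differed by 0.17 (0.02 to 0.33, adjusted p = 0.162), and passed with 16 added before the log2 (adjusted p = 0.0489) and with a robust variance trend (0.0499). Nfkbiz differed by 0.14 (-0.04 to 0.31) and Relb by -0.15 (-0.35 to 0.06).

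Under paraquat limma called 0 of the 9 genes between KO and wt, beside 0.550% of all genes (0.451% lower). At an unadjusted p under 0.05 there was 1 of 9, Relb, with a difference of 0.21 (95% interval 0.01 to 0.41, adjusted p = 0.436). By p Relb ranked 2261 of 22180 genes, so the share of 0.550% does not apply to this cutoff and nothing is read from the count. The other differences ran from -0.12 for Rela to 0.17 for Birc3. The widest interval was that of Tnfaip2, from -0.51 to 0.29, and its difference of -0.11 was 0.10 without KO paraquat 3.

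**Figure D3:**
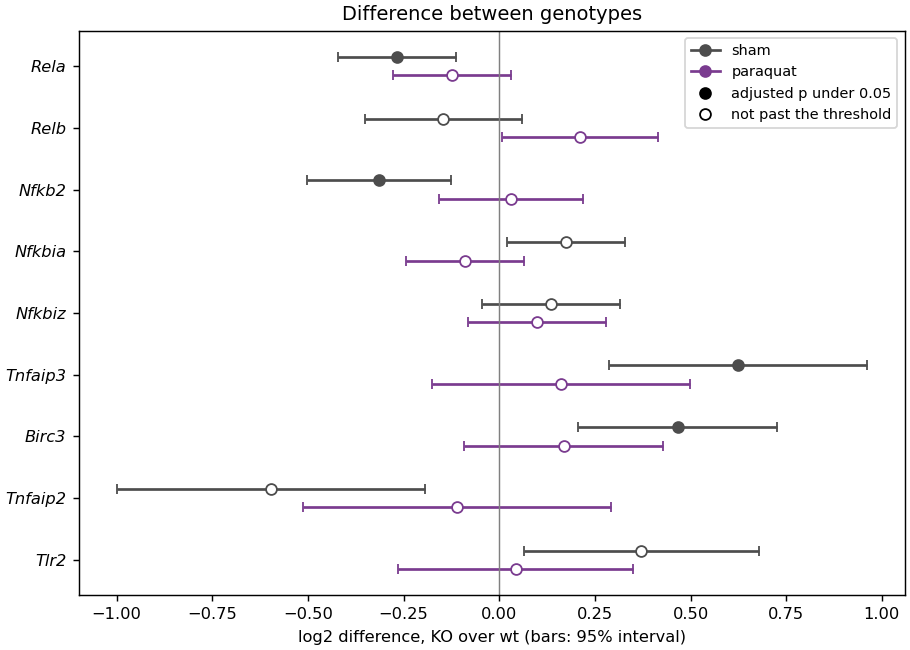
Log2 difference between the genotypes (horizontal axis, KO over wt) of each gene in sham and under paraquat, with 95% intervals from limma; filled points passed an adjusted p of 0.05. Rela and Nfkb2 (lower) and Tnfaip3 and Birc3 (higher) are filled in sham, and all 9 points are open under paraquat.

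The other genes of the pathway were taken from 4 lists with 96 entries, of which 91 were measured. In wt, 30 rose and 16 fell under paraquat, which is 50.5% of 91. In KO, 28 rose and 15 fell, or 47.3%. Of the 79 list genes that pass the filter on signal, 62.0% were called in wt and 54.4% in KO, beside 50.7% and 47.6% of all genes that pass it. Nothing particular to the lists is read from these shares.

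Among 29 receptors and adaptors, 8 rose and 5 fell in wt, and 10 rose and 4 fell in KO (median log2 0.12 and 0.02). Cd14, which presents lipopolysaccharide and lipopeptides to Toll-like receptors, went the opposite way to Tlr2. Its signals were 53, 60 and 47 in wt sham and 204, 234 and 250 in wt paraquat. In KO they were 60, 50 and 60 in sham and 276, 203 and 222 under paraquat. It rose by log2 2.11 ± 0.13 in wt (adjusted p = 7.54e-08) and by 2.04 ± 0.13 in KO (adjusted p = 2.26e-07). Myd88, the adaptor of most Toll-like and interleukin-1 family receptors, rose by 1.21 and 0.96, and Card14, a scaffold of NF-kB signalling in keratinocytes, by 1.27 and 1.09. Il17rc, a subunit of the interleukin-17 receptor, fell by 0.95 in wt and by 0.54 in KO on the log2 scale.

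Among 14 kinases and ubiquitin ligases, 4 rose and 3 fell in each genotype (median log2 0.06 in wt and 0.07 in KO). Map3k8, a kinase that binds the NFKB1 precursor and acts on the ERK pathway, had the largest change of the 4 lists. Its signals were 70, 84 and 71 in wt sham and 784, 865 and 698 in wt paraquat, a 10.4-fold rise (log2 3.38 ± 0.15, adjusted p = 5.47e-09). In KO they were 79, 91 and 91 in sham and 513, 485 and 333 under paraquat, a 5.02-fold rise (2.33 ± 0.15, adjusted p = 2.09e-07). All KO paraquat arrays lay between the KO sham and the wt paraquat arrays.

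The response of Map3k8 differed between the genotypes by -1.05 ± 0.21 (adjusted p = 0.0213), and its level under paraquat was 1.79-fold lower in KO (adjusted p = 0.0269). The first call was lost without wt sham 3, KO sham 2, KO sham 3, wt paraquat 1 or wt paraquat 2 (adjusted p from 0.0532 to 0.0599). The second was lost from the 6 paraquat arrays alone (0.151) and without wt paraquat 1 or 2 or KO paraquat 2 or 3 (0.0516 to 0.140), with -0.64 without KO paraquat 3 against -0.84 with all arrays. Ikbkb, the catalytic kinase of the canonical branch, fell by 0.68 in wt and by 0.35 in KO. Map3k14, the kinase of the non-canonical branch, fell by 0.54 and by 0.43. Its signals lay near the array medians of 42 to 45, at 45 to 63 in wt sham and 35 to 40 in wt paraquat. In KO they were 52 to 64 in sham and 38 to 46 under paraquat. Sharpin, a subunit of the linear ubiquitin ligase, rose by 0.58 in KO and had a change of 0.08 in wt (adjusted p = 0.603), a difference of 0.51 that did not pass (adjusted p = 0.0548). Tab1, a partner of the kinase TAK1, fell by 0.60 in KO and had a change of -0.34 in wt (adjusted p = 0.054).

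Among 18 further subunits and inhibitors, 8 rose and 1 fell in wt and 6 rose and 0 fell in KO (median log2 0.18 and 0.17). Tnip3, a partner of the TNFAIP3 protein, rose by 1.52 in wt and 1.26 in KO, from signals of 37 to 53 in wt sham to 102 to 153 in wt paraquat. Its relative Tnip1 rose by 0.39 and 0.59. Zc3h12a, a nuclease that degrades inflammatory transcripts, rose by 0.62 and 0.90, and the repressor Nkrf by 0.44 and 0.63.

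Among 30 other targets, 10 rose and 7 fell in wt, and 8 rose and 8 fell in KO (median log2 0.03 and -0.0045). Il1a, an alarm cytokine of keratinocytes, rose by 1.53 and 1.44, Csf3, the granulocyte colony-stimulating factor, by 0.86 and 1.08, and Cflar, an inhibitor of caspase-8, by 0.93 and 0.58. Csf1, the macrophage growth factor, fell by 1.44 in wt and by 1.48 in KO. Tnf, the cytokine after which Tnfaip2 and Tnfaip3 are named, was 602, 336 and 382 in wt sham and 210, 201 and 196 in wt paraquat, a fall of 1.07 on the log2 scale. It was 789, 693 and 777 in KO sham and 264, 327 and 296 in KO paraquat, a fall of 1.35. Treated arrays thus lay below the sham arrays of their genotype for Tnf, while they lay above them for Tnfaip2.

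**Figure D4:**
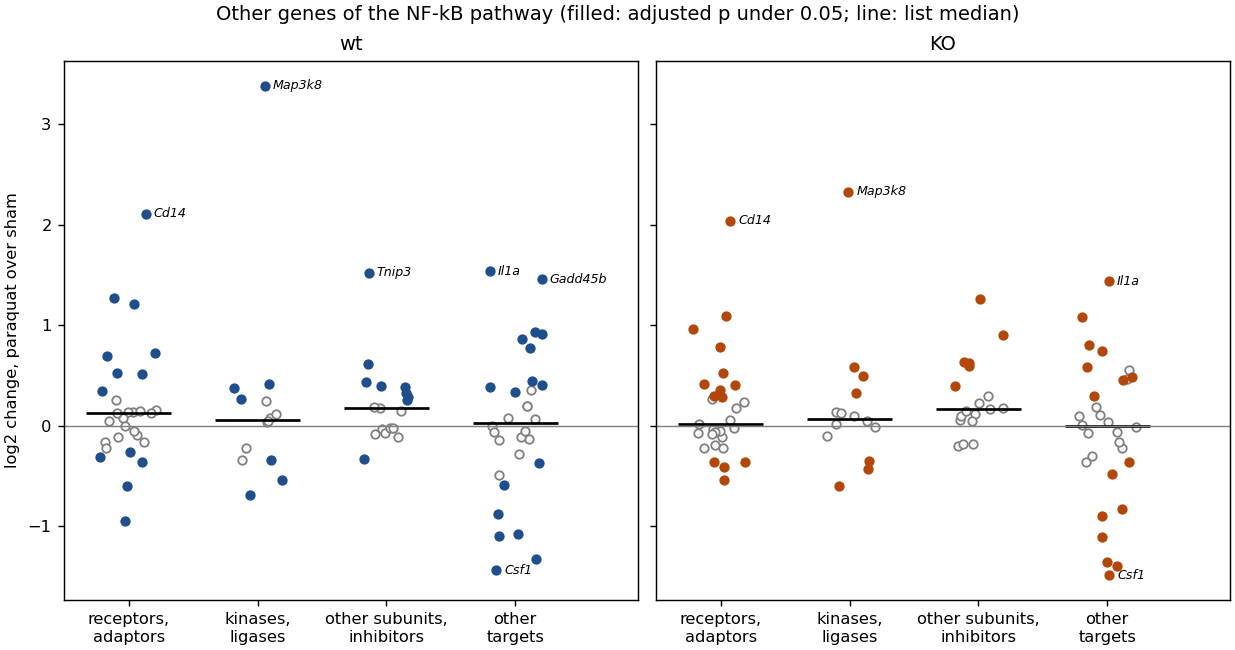
Log2 change under paraquat (vertical axis) of the 91 other pathway genes in wt and KO, in 4 lists; each point is 1 gene, filled where the adjusted p was under 0.05, and the line is the list's median. Genes beyond 1.4 in either direction are named, with Map3k8 at 3.38 in wt and 2.33 in KO and Cd14 at 2.11 and 2.04.

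Between the sham groups 11 list genes were higher and 14 lower in KO, 27.5% of 91, beside 10.2% of all genes. Among genes passing the filter on signal it was 34.2% of 79 list genes, beside 21.5% of all. In the lists' order, receptors and adaptors gave 1 higher and 5 lower, kinases and ligases 1 and 3, subunits and inhibitors 2 and 4, and other targets 7 and 2. Tnf was 1.77-fold higher in KO sham (log2 0.82 ± 0.17, adjusted p = 0.00724), with adjusted p = 0.0723 from the 6 sham arrays alone and 0.0503 without wt sham 2 and KO paraquat 3. Tnip3 (0.84) and Rel, the gene of another activating subunit (0.53), were higher, with Rel at 824 to 915 in KO sham and 541 to 669 in wt sham. Plau, the urokinase gene, was higher by 0.72, with adjusted p = 0.094 from the 6 arrays alone and 0.0537 without wt sham 2 and KO paraquat 3. The kinase gene Tbk1 was higher by 0.34 (adjusted p = 0.05004 from the 6 arrays alone). Mmp9, a matrix-degrading protease, was lower by 0.89 (adjusted p = 0.00305), at 47, 61 and 48 in KO sham against 98, 75 and 120 in wt sham. Irak3, an inhibitor of Toll-like receptor signalling, was lower by 0.85, Pdlim2, which targets nuclear RELA for degradation, by 0.51, Sharpin by 0.54, Tab2 by 0.46 and Ltbr, a receptor of the non-canonical branch, by 0.46 on the log2 scale. The difference of Tab2 missed the threshold from the 6 arrays alone (adjusted p = 0.0599), and that of Il17rc (-0.36) did so there (0.0782) and without wt sham 3 or KO sham 3 (0.0601 and 0.0573). Between the paraquat groups 0 list genes were higher and 2 lower in KO (2.20% of 91, beside 0.550% of all genes), Map3k8 and Gadd45b, a stress gene. Gadd45b was 1.42-fold lower (log2 -0.50 ± 0.10, adjusted p = 0.0461), a call lost without any 1 of the 6 paraquat arrays (0.0516 to 0.201), from these 6 alone (0.114) and with median centring (0.0507).

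Leukocytes also express Tlr2, Tnfaip2 and Cd14 strongly, so the 13 leukocyte and Langerhans cell markers were set beside them. Their summed signal was 928 to 965 in wt sham, 2175 to 2262 in wt paraquat, against 935 to 1036 and 1581 to 1832 in the KO groups. Most of it came from Cd68, a lysosomal protein that other cells make too, at 559 to 610 in wt sham and 1778 to 1870 in wt paraquat. Without Cd68 the sum was 340 to 369, 390 to 397, 344 to 350 and 350 to 367 in the same 4 groups. Ptprc, the common leukocyte antigen, lay at 13 to 21 in all 12 arrays and Lyz2 at 12 to 18, under the array medians. In each group 3 of the 13 markers lay above the array median in all its arrays, and 8 to 10 lay at or under it. Cd207, a marker of Langerhans cells, was at 50 to 63 over all arrays and Fcer1g at 45 to 61. Beside 14.9% of all genes higher and 14.3% lower, 4 of the 13 markers were higher and 0 lower in wt paraquat. Besides Cd68 these included Itgam, an integrin of myeloid cells (log2 0.41, adjusted p = 0.00171, signals of 24 to 43 over all arrays), and Csf1r, the receptor of CSF1 (0.35, adjusted p = 0.0104, 32 to 46). In KO 2 were higher, Cd68 and Itgam (0.38), and Lyz2 was lower (-0.42), beside 14.5% of all genes higher and 12.6% lower. Endothelial cells can also express Tnfaip2. Their 7 markers summed to 219 to 248 in wt sham and 424 to 503 in wt paraquat. In the KO groups they summed to 243 to 259 and 351 to 397. Kdr lay at 45 to 295 over all arrays and Cdh5 at 28 to 36. Under paraquat 3 of the 7 were higher in wt, Kdr (4.63-fold), Tek (1.69-fold) and Pecam1 (1.26-fold). In KO 2 were higher, Kdr (2.61-fold) and Tek (1.515-fold), and 0 were lower in either genotype. The 8 melanocyte markers summed to 427 to 505 and 930 to 1013 in the wt groups and to 481 to 532 and 921 to 966 in the KO groups. In each genotype 4 of these 8 were higher under paraquat and 0 lower, with Mlana 5.94-fold higher in wt and 5.14-fold in KO. The 8 fibroblast markers summed to 317 to 373 and 372 to 435 in wt, and to 310 to 318 and 326 to 341 in KO. In each genotype 1 of these 8 was higher under paraquat and 0 lower, Pdgfra, 2.83-fold higher in wt and 1.87-fold in KO. The part of the endothelial, melanocyte, fibroblast and leukocyte markers in the results was not tested. In cultures of mixed cells, fewer cells of a type and less RNA per cell cannot be told apart.

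The genes most like Tlr2 and Tnfaip2 over the 12 arrays were taken by Pearson correlation of log2 signal from 10342 named genes above the median level. For Tlr2 they were Tmem64 (r = 0.987), Cers5 (0.985), a ceramide synthase, and Elovl5 (0.985), an elongase of polyunsaturated fatty acids. For Tnfaip2 they were Itpripl2 (0.994), Tbc1d2 (0.993) and Fam102a (0.991). Elovl5 had mean signals of 747 in wt sham and 444 in wt paraquat, against 878 and 501 in the KO groups. Fam102a had 345 and 788 in wt, against 305 and 753 in KO. The 12 values of each gene lie in separate sham and paraquat sets, so these coefficients describe that shared step, as a description without a test.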

How the data were processed

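RNA of 12 keratinocyte cultures was hybridised to 12 arrays. Per the submitters' processing notes, the authors normalized by RMA with Affymetrix Expression Console 1.3.1.187. The deposited intensity values are whole numbers from 3 to 17695 on a linear scale, of which the log2 was taken here. The sources used here do not name a genome build for the array.

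Of 41345 probe sets, 23521 carried 1 gene symbol, 1814 several and 16010 none in the platform annotation, which can be old, and 23328 matched a RefSeq table (GRCm38.p6) by gene identifier. The highest-mean probe set stood for each of 22180 genes. All 12 arrays entered 1 model of 4 group means in limma 3.58.1 (R 4.3.3), with 2-sided tests and Benjamini-Hochberg adjustment over all genes, tested on simulated data. No pair of arrays held identical values. Alternatives covered a second quantile normalization, median centring, an offset of 16, a filter on dim genes, the mean of probe sets, a variance trend, array weights, the replicate number as a block, the groups compared alone and leaving out arrays.

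The named genes were the 10 members, Atg7 and up to 3 called genes of smallest p from each pathway list and comparison. To these come the 3 genes most correlated with Tlr2 and with Tnfaip2. Values in the other comparisons are given for only some of these genes, and a value not given may still have passed the threshold. Cd68 and the other named markers come from fixed lists. The members and lists were chosen with earlier results of these data known.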

Additional observations from a re-analysis of the deposited data

Results flagged for a closer look

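Responses to paraquat differed between the genotypes, by the test of the difference itself (KO response minus wt response, limma, adjusted over all genes), for 0 of the 9 measured members, for 3 of the 91 other pathway genes (3.30%) and for 1 of the 13 leukocyte markers, beside 2.29% of all genes. Of the 7 keratinocyte, 8 fibroblast, 7 endothelial and 8 melanocyte markers 0 passed. The 3 pathway genes were named because they passed this test. Map3k8 differed by -1.05 ± 0.21 (SE, adjusted p = 0.0213), rising 10.4-fold in wt and 5.02-fold in KO. Gadd45b differed by -0.65 ± 0.14 (adjusted p = 0.0322), with signals of 596 to 679 in wt sham, 1596 to 1782 in wt paraquat, 618 to 749 in KO sham and 1114 to 1327 in KO paraquat. Mmp9 differed by 1.03 ± 0.22 (adjusted p = 0.0327), with signals of 75 to 120 in wt sham against 34 to 61 in the other 3 groups, which lie around the array medians. Cd68 differed by -0.59 ± 0.13 (adjusted p = 0.0363), and was 585 to 688 in KO sham and 1214 to 1482 in KO paraquat. With 1 array left out in turn the directions held, and several calls were lost. For Map3k8 this was so without wt sham 3, KO sham 2 or 3, or wt paraquat 1 or 2 (adjusted p up to 0.0599). The call of Gadd45b was lost without wt sham 2 or 3, KO sham 1 or 3, wt paraquat 1 or 2, or KO paraquat 2 or 3 (up to 0.0896), and was 0.125 without wt sham 2 and KO paraquat 3 together. For Mmp9 it was lost without wt sham 3, KO sham 1 or 3, wt paraquat 2 or 3, or any KO paraquat array (up to 0.0895), and with the replicate block (0.0562). The call of Cd68 was lost without wt sham 2 or 3, KO sham 1 or 2, any wt paraquat array, or KO paraquat 1 or 3 (up to 0.0918), and was 0.134 without wt sham 2 and KO paraquat 3 together.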

How the results depend on the processing

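Over the alternatives, the number of members called under paraquat stayed at 6 in wt and at 3 or 4 in KO. It stayed at 0 for KO against wt under paraquat and for the difference between the responses. The 6 in wt were not always the same genes. Without wt sham 1, Nfkbiz missed the threshold in limma (adjusted p = 0.0614) and Tnfaip3 passed it (0.00934). Between the sham groups 4 were called. The count was 2 with the replicate number as a block, 0 from the 6 sham arrays alone, 0 without wt sham 2 and KO paraquat 3 together, 0 to 4 when 1 array was left out in turn, 3 with array weights, and 4 to 6 under the rescalings, offset, filter, mean of probe sets and variance trend, the last adding Tnfaip2 and Nfkbia. Same-numbered arrays of different groups correlated at -0.07 to 0.09 after removal of group means, and 0 of 18 pairs exceeded 0.1. When each array was matched to every other group, the best match bore its own number in 16 of 36 cases. With 3 arrays a group these values cannot tell whether same-numbered cultures shared an animal or a preparation. With the replicate block the rise of Nfkbiz in KO had adjusted p = 0.0532, and the sham differences of Rela and Nfkb2 had 0.056 and 0.0503. Rescaling changed 3 member calls: with a second quantile normalization Nfkbiz in KO (adjusted p = 0.0933) and Rela between the sham groups (0.063) missed the threshold, and Tnfaip2 between the sham groups passed it (0.0426, and 0.039 with median centring). Of 765 member values under an alternative, 38 were no longer past the threshold, 9 newly passed it and none of the called ones reversed. The cause of these shifts was not tested. The number of arrays limits precision, and signals of Tlr2 under paraquat and of Tnfaip2 in KO sham lie near the array medians.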
